A study of Mus musculus with 18 samples.

Results

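Lung metastases that received no natural killer (NK) cells were described here as a group of their own, gene by gene and lesion by lesion. The group is made of all lesions with the treatment label Ctrl, whose titles begin with KO, which gave 11 of the 18 samples of the series. They came from 3 mice, with 5 lesions from mouse KO1, 4 from mouse KO2 and 2 from mouse KO3. A lesion is written below as mouse and lesion number, so that KO1-2 is the lesion numbered 2 of mouse KO1.

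The tumour cells were AT3, a mouse mammary carcinoma line, labelled with GFP and mCherry and placed in the mammary fat pad, from where they spread to the lungs unaided. All hosts lacked lymphocytes: the strain label reads Rag2-/-IL2rg-/-, while the growth protocol names Rag1-/-IL2rg-/- mice. On day 11 the Ctrl mice were given PBS by vein, in place of the 60000 activated NK cells given to the other group. Lesions were found by their fluorescence on frozen, OCT-embedded lung sections and cut out by laser, and libraries were made from 2 ng of total RNA per lesion with a kit for very small RNA inputs. The sources used here do not give the sex and age of the mice or the number of sections or cells behind a lesion.

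As background, a metastasis in the lung grows among thin alveolar walls, capillaries and airways, and a piece cut by laser holds the cancer cells together with whatever host tissue lies in or beside the cut. Alveoli are lined by flat type 1 cells, which exchange gas, and by cuboidal type 2 cells, which make surfactant. Airways are lined by secretory club cells and by ciliated cells, and the lung surface is covered by mesothelium. Rag1 and Rag2 cut the antigen receptor genes of T and B cells, and Il2rg is the receptor chain that NK cells need for interleukin 15, so mice without them keep myeloid cells such as neutrophils and macrophages but lack T, B and NK cells.

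The libraries held 5690467 to 9816244 expected counts (median 7226463), with at least 1 count for 13936 to 19173 genes. They differed most in mitochondrial ribosomal RNA. The gene mt-Rnr2, which encodes the large ribosomal RNA of mitochondria, took 12.1% of counts in the lowest lesion, KO2-2, a median of 28.2%, and 68.7% in the highest, KO1-5. Lesions KO1-5, KO1-2 (58.3%) and KO3-2 (44.1%) were the only ones above 40% and stand apart, and counts outside the mitochondrial genome fell to 1678563 in KO1-5 against 8082816 in KO2-2. In the main analysis these 3 lesions were kept, and results that rest on them are given with and without them. Mitochondrial RNA in total took 12.7% to 25.2% of counts in the 4 lesions of KO2 and 37.7% and 45.8% in KO3. In KO1 it spanned 24.1% to 71.9%, a range that overlaps with both other mice.

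**Figure D1:**
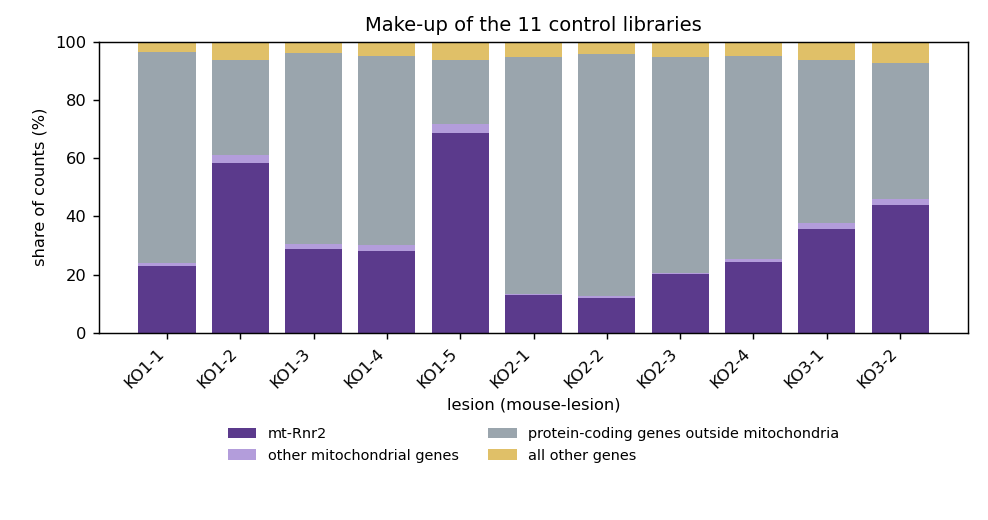
Share of counts (vertical axis, %) taken by mt-Rnr2, other mitochondrial genes, protein-coding genes outside mitochondria and all other genes in each of the 11 control lesions. mt-Rnr2 rises from 12.1% in KO2-2 to 68.7% in KO1-5, and KO1-2, KO1-5 and KO3-2 are the lesions above 40%.

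Levels are given below as CPM, counts set to a common library size, with that size scaled by TMM, a method that equalises the bulk of genes between libraries. In a lesion where a few genes take much of the library, CPM can therefore differ from a plain share of that library's counts. In such bulk samples, fewer cells of a type and less RNA per cell cannot be told apart.

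The genes that define lymphocytes were at or near 0. Cd3e, Cd3d and Cd3g, the signalling chains of the T cell receptor, and Ms4a1, a marker of B cells, had 0 counts in all 11 lesions, which allows up to 0.0355 CPM over the 84445221 counts of the group. The T cell list of 12 genes summed to 311 counts in all, with 5 genes at 0, and the NK cell list of 15 genes to 885 counts, of which Klra4 gave 390. Ncr1, a receptor that defines NK cells, had 5 counts, all in KO1-1 and KO1-3. The B cell list ran from 0.981 CPM in KO3-2 through a median of 9.77 to 50.6 in KO2-1, most of it Ighm, the heavy chain of IgM, with 1199 counts. Rag1 had 1 count, Rag2 had 81 counts in 8 lesions, and Il2rg had 55 counts in 9 lesions, of which KO1-4 held 27. The captured tissue includes AT3 cells, whose own alleles of these genes the labels do not give, and the sources used here do not say whether the exons removed in the hosts are among those counted, so these counts check the strain only in part.

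Besides mt-Rnr2, which averaged 32.4% ± 18.1 (SD, n = 11 lesions) of counts, few genes took over 1% of a library. Lars2, a mitochondrial leucyl-tRNA synthetase gene on chromosome 9 (GRCm38, chr9:123366927-123462666), averaged 2.38% ± 1.30 and spanned 0.412% in KO2-1 to 4.17% in KO1-2. AY036118 averaged 1.29% ± 0.61 and CT010467.1, annotated as a ribosomal RNA, 1.24% ± 0.55. These last 2 genes and Gm42418 (0.412% ± 0.145) overlap one another between 39846353 and 39848827 on chromosome 17, and the sources used here do not say how strand was handled, so their reads cannot be assigned to one of them with certainty. Across the 11 lesions the log2 CPM of Lars2 followed that of mt-Rnr2 with r = 0.96, AY036118 with r = 0.95 and CT010467.1 with r = 0.93. Eef1a1, the translation elongation factor, went the other way (r = -0.94). The lesions share mice and each library shares 1 total, so these correlations are descriptions.

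Of the 12 highest genes by share, mt-Co1, a protein-coding gene of the mitochondrial genome, averaged 0.991% ± 0.648. The rest were genes of translation and the cytoskeleton. Rpl27 (0.565% ± 0.410), Rpl36 (0.494% ± 0.217), Rplp1 (0.446% ± 0.238) and Rps3a1 (0.350% ± 0.176) encode ribosomal proteins, and Actg1 (0.314% ± 0.144) encodes cytoplasmic actin. On a scale per kilobase of exon, the usual length-corrected TPM, over genes outside the mitochondrial genome, the level of Rpl36 was 46660 on average and that of Rplp1 31283. On that scale Scgb1a1, the main secretory protein of airway club cells, entered the 12 highest genes with a mean of 18044, but its median was 371 and KO3-1 alone held 116209. Hbb-bs, a chain of adult haemoglobin, averaged 9570 TPM, with 453 in KO1-3, a median of 4540 and 39929 in KO2-3. Airway and red blood cell transcripts thus ranked with those of ribosomal proteins through a few lesions.

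Genes of mesenchymal-like carcinoma cells spanned a narrow range. The mesenchymal transition list, 16 genes that such cells share with fibroblasts and endothelium, summed to 2508 CPM in KO3-2, a median of 3372 and 4547 in KO1-4, which is a 1.81-fold span, and 1.63-fold without the 3 lesions rich in mt-Rnr2. Its largest member was Vim, the intermediate filament of mesenchymal cells, at 941 CPM in KO3-2, a median of 1483 and 2467 in KO1-4. Fn1, fibronectin, had a median of 707 CPM (321 to 906) and Cd44, a hyaluronan receptor, one of 417 CPM (215 to 563). In TPM outside the mitochondrial genome, the median level of Vim was 1224, against 216 for Krt18, 22.2 for Krt8 and 7.99 for Epcam, the last 3 being markers of simple epithelium. On that scale the level of Vim exceeded that of Krt18 at the median of the lesions, and Krt14, a basal keratin, had 0 counts everywhere.

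Epithelial markers spanned a wider range. The mammary epithelium list of 21 genes summed to 161 CPM in KO1-4, a median of 269 and 724 in KO3-1. The 4 highest lesions were KO3-1, KO1-3 (715 CPM), KO1-2 (584 CPM) and KO1-1 (433 CPM), and the same 4 lesions were the highest in the airway lists described next. Airway cells express many of these genes too, and their part in this list was not tested. Epcam itself was 30.6 CPM in KO1-3, had a median of 4.55 and 0 counts in KO3-2. Cd24a ran from 5.27 CPM in KO1-5 to 201 in KO1-3 and Cdh1, E-cadherin, from 5.55 CPM in KO2-1 to 106 in KO3-1. Krt18 differed in its order, with 180 CPM in KO1-2, a median of 75.8 and 35.6 in KO2-3. Milk protein genes were close to absent: Csn2, Csn1s1 and 3 others of the 7 listed had 0 counts, and the list summed to 6.51 CPM at most, in KO2-2.

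Proliferation genes were present in all lesions. The cell cycle list of 28 genes summed to 1327 CPM in KO3-1, a median of 1943 and 2846 in KO2-1, a 2.15-fold span. Mcm7 (235 to 949 CPM, median 318) and Mcm3 (104 to 217 CPM, median 139), subunits of the replicative helicase, and Ube2c (57.4 to 313 CPM, median 123), an enzyme of mitotic exit, were its largest members. The tumour cytokine list had a median of 432 CPM, with 671 in KO2-1 and with the 2 lesions of KO3 lowest, at 176 and 179. Spp1, osteopontin, gave most of it: 22.1 CPM in KO3-2, a median of 284 and 396 in KO2-2. Ccl2, a monocyte attractant, ranged from 0.959 CPM in KO1-5 to 101 in KO2-1, whereas Csf3, the growth factor of neutrophils, had 3 counts in all.

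Among lung epithelia, alveolar cells were in every lesion and airway cells in some. The alveolar type 1 list summed to 301 CPM in KO1-3, a median of 485 and 726 in KO2-3. The alveolar type 2 list ran from 830 CPM in KO1-4 through 1828 to 4738 in KO1-2, a 5.71-fold span that fell to 3.41-fold without the 3 lesions rich in mt-Rnr2. Sftpc, a surfactant protein made only by type 2 cells, was between 261 CPM in KO1-3 and 1017 in KO1-5, with a median of 717, and was thus read in every lesion.

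The airway club list had the widest span of all lists without a zero. It summed to 29.1 CPM in KO1-4, had a median of 141 and reached 17582 CPM in KO3-1, 604-fold higher, and this span does not involve any of the 3 lesions rich in mt-Rnr2. Lesions KO1-1 (2683 CPM), KO1-2 (3281 CPM), KO1-3 (5096 CPM) and KO3-1 lay above 2600 CPM, and the other 7 lesions at or below 325 CPM, with nothing in between. Scgb1a1 (chr19:9083636-9087958) had 0.253 CPM in KO2-4, a median of 62.3 and 15464 in KO3-1. The airway ciliated list followed the same division, with 143 to 447 CPM in those 4 lesions and 4.59 to 28.3 CPM in the others. Lesions of the same mouse could lie on either side: KO1-3 had 3980 CPM of Scgb1a1 and KO1-4 had 0.353.

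Mesothelial genes divided the lesions by mouse. The list of 7 genes summed to 119, 120, 127 and 251 CPM in the lesions of KO2, to 4.73 and 56.4 CPM in KO3, and to between 0.959 and 12.95 CPM in KO1. All 4 lesions of KO2 thus lay above every other lesion. Upk3b, a uroplakin that marks mesothelium in the lung, had 0 counts in 4 of the 5 lesions of KO1 and 35.4 to 88.5 CPM in KO2.

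**Figure D2:**
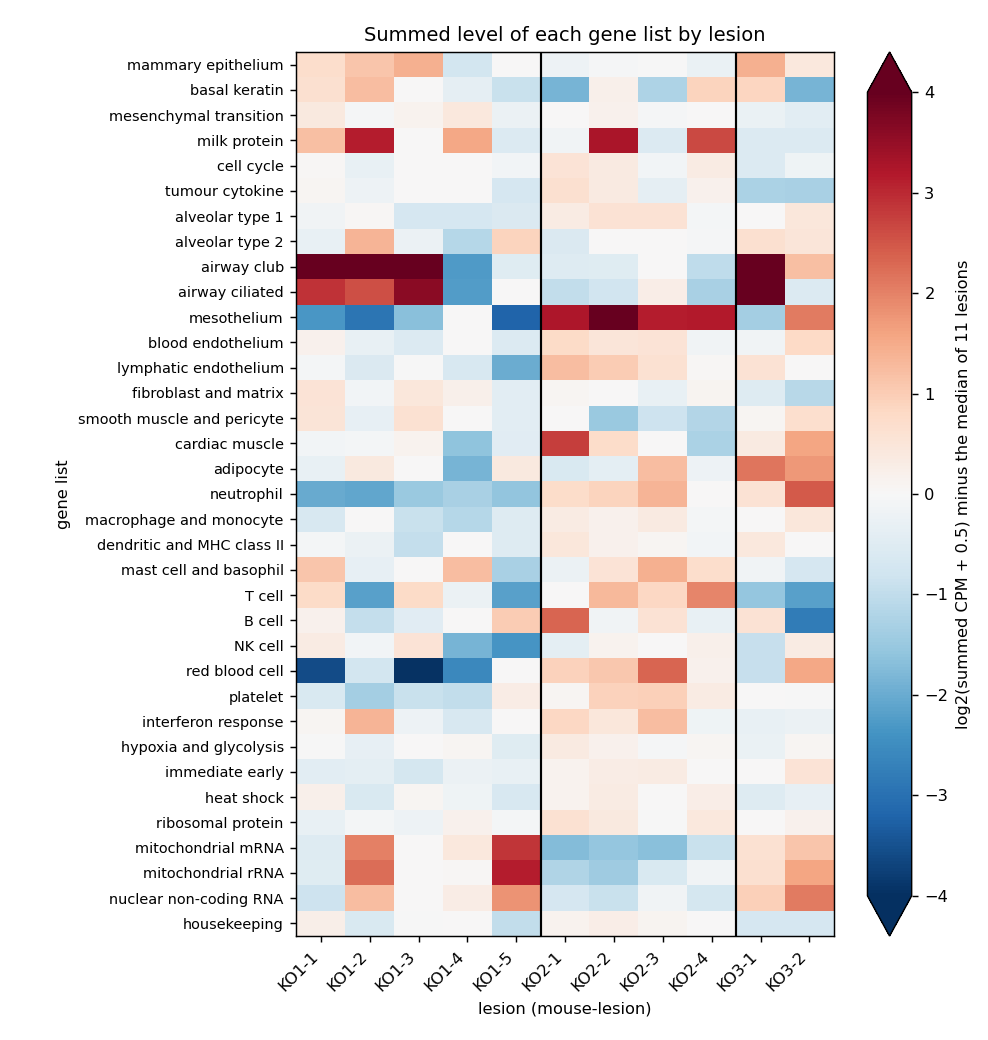
Summed level of each gene list in each lesion, as log2(summed CPM + 0.5) minus the median of the 11 lesions; rows are the 35 lists, columns the lesions, and black lines divide the mice. Airway lists are high in KO1-1, KO1-2, KO1-3 and KO3-1, mesothelium in KO2, and neutrophil genes are low in all 5 lesions of KO1.

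The summed blood endothelium and fibroblast lists spanned less than the airway and mesothelium lists. The blood endothelium list of 20 genes summed to 290 CPM in KO1-5, a median of 425 and 735 in KO3-2, and Cdh5, the cadherin of endothelial junctions, ran from 8.63 CPM in KO1-5 through 38.6 to 94.1 in KO1-1. Lymphatic endothelium was sparse, with a median of 39.5 CPM, mostly Lyve1. The fibroblast and matrix list had 552 CPM in KO3-2, a median of 1184 and 1739 in KO1-1, led by Sparc (median 320 CPM) and Col3a1 (median 299 CPM), a collagen of loose connective tissue. Dcn, decorin, spanned 3.92 CPM in KO3-2 to 234 in KO2-2. Smooth muscle and pericyte genes (39.3 to 176 CPM), cardiac muscle genes (median 6.75 CPM) and adipocyte genes (median 1.33 CPM) were low.

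Neutrophil genes divided the mice. The neutrophil list of 16 genes summed to 281 to 480 CPM in the 5 lesions of KO1, to between 1176 and 3027 CPM in those of KO2 and to 1738 and 6386 CPM in those of KO3, so the lesions of KO1 did not overlap with the others. The red blood cell list ran from 119 CPM in KO1-3 through 1860 to 9328 in KO2-3. The macrophage and monocyte list spanned only 1335 CPM in KO1-4 to 4061 in KO3-2, with a median of 2955, and most of it was Lyz2, lysozyme of myeloid and type 2 cells, at 875 to 3121 CPM. Dendritic cell and MHC class II genes kept within 158 and 424 CPM, led by Cd74 (median 154 CPM).

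Among genes of cell states, those of the interferon response spanned 4.02-fold, more than hypoxia or heat shock genes. The interferon response list had a median of 467 CPM and its highest values in KO1-2 (1212 CPM) and KO2-3 (1110 CPM). Mx1, an antiviral GTPase, had the highest SD among its members with a mean of at least 10 CPM and ran from 2.00 CPM in KO1-4 through 25.5 to 227 in KO1-2. Hypoxia and glycolysis genes spanned 1.82-fold (1739 to 3156 CPM), or 1.57-fold without the 3 lesions rich in mt-Rnr2, and heat shock genes 1.97-fold (1197 to 2359 CPM). The housekeeping list spanned 2.39-fold and was lowest in KO1-5 (4572 CPM), the lesion with the highest mt-Rnr2 share.

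Variation was measured for the 8023 genes with a mean of at least 10 CPM as the standard deviation (SD) of log2 CPM over the 11 lesions. The median SD was 0.68, with quartiles of 0.50 and 0.95, and 174 genes exceeded 2. Without the 3 lesions rich in mt-Rnr2 the median SD was 0.47. The lesions contributed unequally: KO3-2 held the highest value for 1898 genes and the lowest for 1907, and KO1-5 for 1225 and 1766, whereas KO1-3 did so for 219 and 350. Over all 11 lesions, the median was 0.56 for genes of at least 50 CPM. The part of counting noise in that lower value was not tested.

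Of the 15 most variable genes, 3 belonged to the airway club list and 1 to the mesothelium list. Scgb1a1 had the highest SD (5.88), followed by Cyp2f2 (4.95), a club cell cytochrome, Retnla (4.69), a secreted resistin-like protein, and Scgb3a2 (4.33), a second club cell secretoglobin. Cyp2f2 was 722 CPM in KO3-1 and between 134 and 273 CPM in KO1-1, KO1-2 and KO1-3, against at most 0.959 CPM elsewhere. Scgb3a2, Gabrp, BC051019 and Cfap206 had counts in these 4 lesions and in no other. Ak7, Cfap65 and Cfap206 are genes of motile cilia, and with 1700007K13Rik they were highest in KO3-1, at 91.7 to 115 CPM.

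Retnla did not follow the airway genes in size. Its level was 3591 CPM in KO1-3, 680 in KO1-1, 207 in KO1-2 and 136 in KO3-1, so that KO1-3 alone held 84.0% of its counts, and it was at or below 9.59 CPM in the other 7 lesions. Upk3b (SD 3.81) was the mesothelial gene among the 15. Apoc2, an apolipoprotein that activates lipoprotein lipase, reached 959 CPM in KO3-1 and 721 in KO3-2 and at most 121 elsewhere, while Gm44805, which overlaps it on chromosome 7, reached 334 CPM in KO3-2. Reads of these overlapping genes may have been shared between them by the counting. Gm20388 is annotated from 119910841 to 124345722 on chromosome 8, a range that holds other genes, and Gm24270 is annotated as a miRNA, so their values (up to 122 and 173 CPM) are uncertain too.

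The least variable genes had mean levels between 10.3 CPM (Tbpl1) and 743 CPM (Rpl6). Akap1, an anchor of protein kinase A on mitochondria, had the lowest SD (0.14), with a median of 88.8 CPM and 106 in the highest lesion, KO3-2. Cdk8, the kinase of the Mediator complex, ran from 49.0 through 57.6 to 69.6 CPM, and Cdk2ap1 from 117 through 151 to 160 CPM. Others included Mea1, Fam120a, Vezf1, Tbpl1, Mbnl2, Fkbp1a, Pbrm1, a subunit of a chromatin remodelling complex, Hnrnpu, Rnf20 and Gpi1, and the ribosomal protein gene Rpl6 (624 to 892 CPM, SD 0.17). The SD of the last gene in this set was 0.169 and that of the next outside it 0.171, so the boundary is arbitrary. Without the 3 lesions rich in mt-Rnr2, 2 of these 15 genes stayed among the 15 lowest, against 11 of 15 at the other end.

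**Figure D3:**
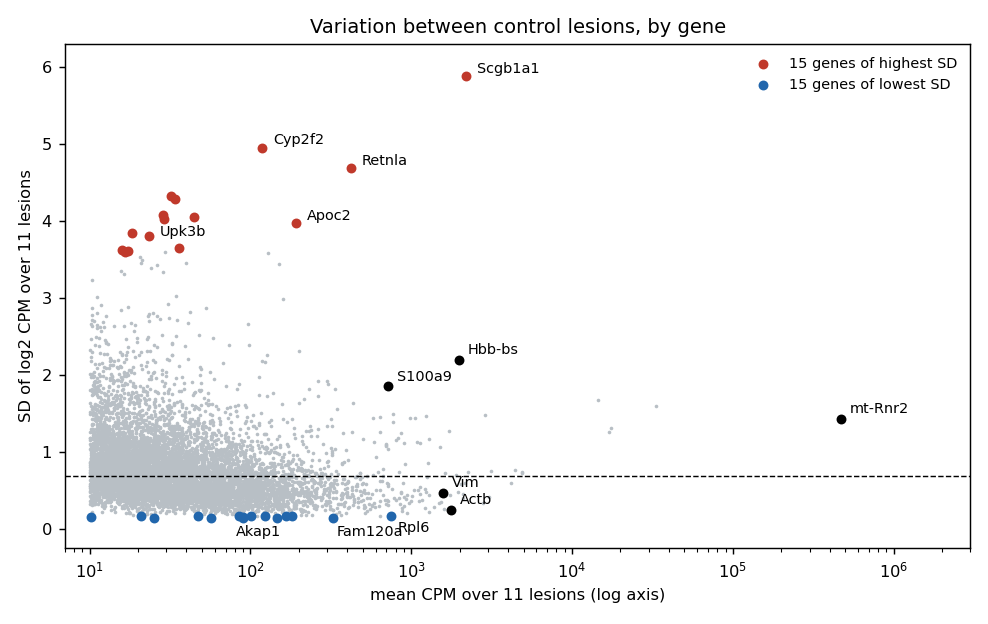
SD of log2 CPM over the 11 lesions (vertical axis) against mean CPM (horizontal, log axis) for the 8023 genes with a mean of at least 10 CPM; the dashed line is the median of 0.68. Red points are the 15 genes of highest SD, blue the 15 of lowest SD, and black points name 5 other genes; Scgb1a1 is the highest at 5.88.

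Whole lists held different places in this order. The median SD of measured members was 3.23 for airway club genes (7 of 7 above the median of all genes), 1.77 for neutrophil genes (11 of 11) and 1.82 for red blood cell genes (6 of 6). Airway club members such as Scgb3a2 and Cyp2f2 reached a mean of 10 CPM only through KO1-1, KO1-2, KO1-3 and KO3-1. For such members the filter itself implies a high SD. The median SD was 0.33 for the 33 ribosomal protein genes, of which only Rpl27 (SD 0.73) lay above the median of all genes. For 7 heat shock genes it was 0.47, and none lay above. Mesenchymal transition genes (0.51) and cell cycle genes (0.60) lay below the median as well. Fibroblast and matrix genes (1.13, with 15 of 18 above the median of all genes) and blood endothelium genes (0.85, 8 of 13) lay above it. Actb, cytoplasmic actin, had an SD of 0.25 and Gapdh one of 0.33.

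Whether lesions differed by mouse was asked next with edgeR's quasi-likelihood test of mouse over 14677 genes, with Benjamini-Hochberg adjustment. It speaks of these 3 mice, and mouse cannot be told apart from its sections, capture and handling. Fits without KO3-1, without KO3-2 or without the 3 lesions rich in mt-Rnr2 leave KO3 with a lone lesion. In those fits KO3 has no spread of its own and is assumed to vary like the others. At an adjusted p under 0.05 the test called 397 genes, 2.7% of those tested. The difference of KO2 minus KO1 was called higher for 107 genes (0.729%) and lower for 44 (0.3%), that of KO3 minus KO1 higher for 138 (0.94%) and lower for 13 (0.0886%), and that of KO3 minus KO2 higher for 88 (0.6%) and lower for 18 (0.123%). These counts depend on single lesions: without KO3-1 the test called 2143 genes, without KO2-2 it called 104, and without the 3 lesions rich in mt-Rnr2 it called 548, of which 196 were among the 397. DESeq2's likelihood ratio test called 2086, of which 394 were among the 397. With the level of mt-Rnr2 as a covariate edgeR called 125 genes.

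Neutrophil genes gave the most calls of any list by number, 61.5% of those tested, against 2.7% of all genes. By share, mesothelial genes were higher (71.4%). Of 13 members tested, 8 were called (S100a8, S100a9, Camp, Retnlg, Mmp8, Mmp9, Lcn2 and Ly6g), and the median difference over the 13 was 2.66 on the log2 scale for KO2 minus KO1 and 3.31 for KO3 minus KO1, against -0.06 and -0.07 over all genes tested. S100a9 (chr3:90692632-90695721), a subunit of calprotectin, had 78.7 to 141 CPM in KO1, 542, 863, 934 and 1281 CPM in KO2, and 723 and 3057 CPM in KO3. The lesions of KO1 were below all others, and the fitted difference was 3.10 ± 0.39 (SE, log2) for KO2 minus KO1 and 4.17 ± 0.44 for KO3 minus KO1, with an edgeR adjusted p of 0.0034 over the 3 mice. Slfn4, a schlafen gene of myeloid cells, showed the same division, with 33.2 to 55.5 CPM in KO1 and 219 to 775 CPM elsewhere, as did Wfdc17, with 7.94 to 24.3 and 57.6 to 131 CPM. Without the 3 lesions rich in mt-Rnr2, 7 of the 13 neutrophil genes were called, and when each lesion was left out in turn between 4 (without KO1-1, KO2-2 or KO2-3) and 12 (without KO3-1).

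Of mesothelial genes 71.4% were called and of blood endothelium genes 10%, against 2.7% of all genes tested. Of 7 mesothelial genes, 5 were called (Msln, Wt1, Upk3b, Upk1b and Lrrn4), and 4 of them were called higher in KO2 than in KO1 in the pairwise contrast. With each lesion left out in turn, 3 (without KO2-2) to 6 (without KO3-1) were called. Upk1b had 16.4 to 35.5 CPM in KO2 and at most 1.53 CPM in any other lesion. Of 20 blood endothelium genes, 2 were called: Calcrl, the receptor of adrenomedullin, and Ptprb, the phosphatase of endothelial junctions. Calcrl (chr2:84330626-84425411) was 11.6, 13.5, 16.3, 16.8 and 20.9 CPM in KO1, 75.8, 100, 142 and 149 CPM in KO2, and 57.7 and 98.6 CPM in KO3, with no overlap between KO1 and the rest (edgeR adjusted p = 0.0034). Cdh5, by contrast, had an edgeR adjusted p of 0.588, so the 2 called genes do not stand for the list. Its median difference was 0.31 for KO2 minus KO1 and 0.73 for KO3 minus KO1, with 16 of 20 members positive in each. Over all 14677 genes tested, 6945 and 6902 were positive in these contrasts.

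Among tumour lists, edgeR called genes of the cell cycle list alone (7.14%, against 2.7% of all genes tested). With so low a share over all genes, a short list without a call is not set apart. Of 28 cell cycle genes, Mki67 and Ube2c passed, in opposite directions. Mki67, the proliferation antigen, was 76.7, 78.1, 92.8, 103 and 117 CPM in KO1, 25.3 to 33.9 CPM in KO2 and 13.2 and 28.6 CPM in KO3, and fell by 1.71 ± 0.29 (SE, log2) from KO1 to KO2 (edgeR adjusted p = 0.0076 over the 3 mice). Ube2c was instead highest in KO2, with 164 to 313 CPM against 81.5 to 127 in KO1 and 57.4 and 83.7 in KO3. Over the 28 genes the median difference was 0.22 for KO2 minus KO1 and -0.92 for KO3 minus KO2. None of the 19 mammary epithelium, 16 mesenchymal transition or 7 tumour cytokine genes tested was called by edgeR, while 5, 5 and 3 had an unadjusted p under 0.05, and DESeq2 called 4, 2 and 3 and limma voom 1, 0 and 0. Over all genes, 3557 of 14677 had an unadjusted p under 0.05 in edgeR, DESeq2 called 2086 of 13952 and limma voom 797 of 14677, so the shares of mammary epithelium and mesenchymal transition genes were near those of all genes. Calls of red blood cell genes depended on the setting: edgeR called 0 of 8, with 5 at an unadjusted p under 0.05, but 7 without the 3 lesions rich in mt-Rnr2, DESeq2 called 3 and limma voom 8.

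**Figure D4:**
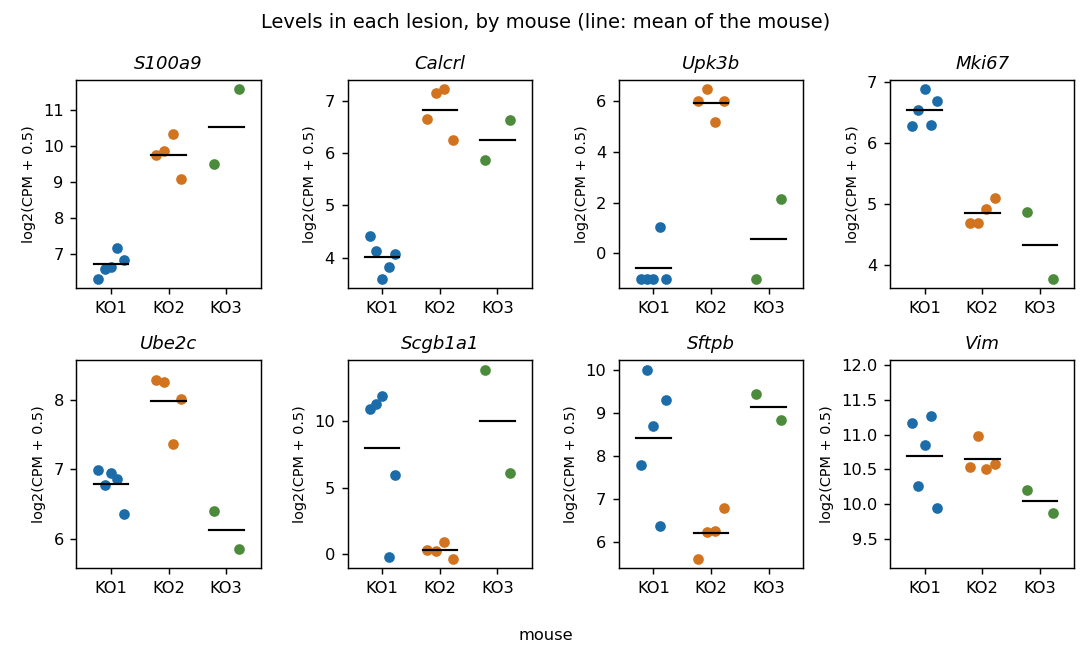
Level of 8 genes in each lesion as log2(CPM + 0.5) (vertical axis, a separate scale for each gene), grouped by mouse, with the mean of each mouse as a line. S100a9 and Calcrl are low and Mki67 high in all 5 lesions of KO1, Upk3b and Ube2c are high in KO2, and Scgb1a1 differs among lesions of KO1.

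Alveolar lists gave 1 call each, of 9 type 1 genes (11.1%) and 11 type 2 genes (9.09%), against 2.7% of all genes tested. Sftpb, a surfactant protein, was 48.4 to 110 CPM in KO2 and 82.2 to 1026 CPM in the other lesions (edgeR adjusted p = 0.0489), while Sftpc was not called (adjusted p = 0.847). Cav1, caveolin of type 1 cells and endothelium, was 146 to 347 CPM in KO2 and 41.7 to 146 CPM elsewhere (adjusted p = 0.0336 in edgeR). These are weak calls: with each lesion left out in turn, Sftpb was called in 2 of 11 fits and Cav1 in 4 of 11, with edgeR adjusted p up to 0.135 and 0.101, both without KO2-2. Of 20 fibroblast genes, 2 were called (10%, against 2.7% of all genes tested). Col6a3 was called lower in KO2 than in KO1 (5.84 to 15.5 against 32.3 to 77.5 CPM) and Thbs2 lower in KO3 (3.92 and 4.59 CPM) than in the other mice (15.3 to 24.1 CPM). Col6a3 was called in 6 of 11 fits with a lesion left out and Thbs2 in 2 of 11, and Thbs2 lost its call without the 3 lesions rich in mt-Rnr2 (edgeR adjusted p = 0.0672) and by limma voom (adjusted p = 0.146). The count for the fibroblast and matrix list depended on the setting: 12 of 20 had an unadjusted p under 0.05 in edgeR, DESeq2 called 9 and limma voom 6. Over all genes these were 3557 of 14677, 2086 of 13952 and 797 of 14677. With a lesion of KO1 or KO2 left out, edgeR called 0 (without KO1-1, KO1-3, KO2-2, KO2-3 or KO2-4) to 3 (without KO1-5) of the list. Over all genes those fits called 104 (without KO2-2) to 550 (without KO1-5). The median difference over the list was -0.67 for KO2 minus KO1 and -1.23 for KO3 minus KO1. Scgb1a1 was called (edgeR adjusted p = 0.0337) although lesions of KO1 lay on both sides of the airway division, and it was not called without the 3 lesions rich in mt-Rnr2 (adjusted p = 0.0639) or by limma voom with lesion weights (adjusted p = 0.665).

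Several genes with the smallest p-values were high in KO3. 2210406O10Rik, a long non-coding RNA, had the smallest (edgeR adjusted p = 0.000349), with 415 CPM in KO3-2, 18.6 in KO3-1 and at most 0.628 in any other lesion. Pot1b, a telomere-binding protein, had 165 CPM in KO3-2, 7.02 in KO3-1 and at most 3.06 elsewhere, and lost its call without KO3-2 (edgeR adjusted p = 0.27). Hexim1, an inhibitor of transcription elongation, was 68.3 and 115 CPM in KO3 against 10.5 to 19.9 elsewhere, and Pnisr, a splicing-related gene, 116 and 86.3 against 7.80 to 30.2. Mitochondrial messenger RNAs were called for 6 of 13 genes (46.2%, against 2.7% of all genes tested), all 6 lower in KO2 than in KO1. Over all genes, 0.3% were called lower in that contrast. Without any 1 of the 4 lesions of KO2 the count of these messenger RNAs was 0, in fits that called 104 to 200 genes over all. Without KO1-2 it was 1, with 255 genes called over all, and without KO1-1 it was 7, with 212. Xist, the RNA that silences an X chromosome, was lower in KO2 (52.0 to 82.4 CPM) than elsewhere (118 to 457 CPM), and the nuclear non-coding RNA list that holds it followed mitochondrial ribosomal RNA over the 11 lesions (r = 0.90).

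As whole profiles, lesions of the same mouse were more alike on average, but not in each mouse. The Pearson r of log2 CPM across genes averaged 0.859 over the 17 pairs of lesions from the same mouse and 0.808 over the 38 pairs from different mice, and the difference of 0.051 had an exact two-sided permutation p of 0.002 over 6930 assignments. It was between 0.041 and 0.061 when each lesion was left out in turn (exact permutation p up to 0.030) and 0.059 without the 3 lesions rich in mt-Rnr2 (p = 0.0036, exact permutation test). The most alike lesions were KO1-1 and KO1-3 (r = 0.95), which both held airway genes. KO3-2 was the least like the others, with a mean r of 0.75, and the nearest to it was KO2-4 rather than KO3-1. Pairs within KO2 had r of 0.893 to 0.918, above every pair from different mice (at most 0.892). Pairs within KO1 ran from 0.775 to 0.952. The pair of KO3 had an r of 0.741, below the mean for different mice.

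Which genes varied together was read from Pearson's r of log2 levels over the 11 lesions. These r are descriptions: lesions share mice, every level shares its library and its mitochondrial share, and among all pairs of the 8023 genes 1.8% exceeded 0.8 and the central 90% ran from -0.68 to 0.70. Among lists outside mitochondria with more than 1 pair of measured members, red blood cell genes formed the tightest group (median r of 0.96 over 15 pairs), then airway club genes (0.86 over 21 pairs) and neutrophil genes (0.81 over 55 pairs), against 0.01 over all pairs. Deviations from the mouse means gave 0.98 and 0.90 for the former 2 lists but 0.41 for neutrophil genes. The airway club value is not independent of the filter at 10 CPM. Scgb3a2 and Cyp2f2 passed it only through the same lesions, KO1-1, KO1-2, KO1-3 and KO3-1. Hypoxia and glycolysis genes (-0.12) and mesenchymal transition genes (0.08) did not vary as groups.

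The mammary epithelium list moved with the airway lists, and the alveolar lists less or not. The summed level of airway club genes followed that of ciliated genes (r = 0.97, and 0.98 as deviations from the mouse means). The mammary epithelium list followed airway club genes as closely (r = 0.98, and 0.96 within mice), and the value was 0.98 without the 3 lesions rich in mt-Rnr2. The genes nearest to Scgb1a1 were Wfdc2, an epithelial protease inhibitor (r = 0.95), Cbr2, a club cell reductase (0.94), Atp1b1 (0.94), Cyp2f2 (0.93) and Cxcl17, a mucosal chemokine (0.93). Airway club genes had an r of 0.43 with alveolar type 2 genes and of -0.11 with alveolar type 1 genes. Alveolar type 2 genes had an r of 0.17 with alveolar type 1 genes, which was -0.37 without KO1-3 and KO1-4, the 2 lesions farthest from the median of the latter. Krt18 had other neighbours, among them Ckap4 (r = 0.92), a protein of the endoplasmic reticulum.

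The alveolar type 1, blood endothelium, neutrophil, macrophage and red blood cell lists varied together. Alveolar type 2 genes stood apart, with r of -0.32 with blood endothelium, -0.04 with neutrophil, 0.40 with macrophage and 0.28 with red blood cell genes. Alveolar type 1 levels followed macrophage and monocyte levels (r = 0.92, and 0.79 within mice) and blood endothelium levels (r = 0.81, and 0.61 within mice). Most of the summed macrophage and monocyte level is Lyz2, which type 2 cells express too. The measured members of that list had a median r of 0.24 with one another (0.09 within mice). The r of its summed level therefore does not speak for its other members. Neutrophil levels followed those of immediate early genes (r = 0.94), mesothelium (0.78), macrophages (0.78) and red blood cells (0.77). As deviations from the mouse means these 4 values were 0.74, 0.70, 0.14 and 0.45, so the relation of neutrophils to macrophages lay mainly between mice. Hbb-bs followed Hba-a1 (r = 0.99) and Hba-a2 (0.99), a pair of near-identical genes whose reads may be split, and Slc4a1, the anion exchanger of red cells (0.96).

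Single genes can depart from their list. S100a9 was followed by Atp2b1 (r = 0.98), Slfn4 (0.98), S100a8 (0.98) and Retnlg (0.98), and Mki67 ran most opposite to it (r = -0.97, and -0.71 within mice). The cell cycle list as a whole was unrelated to the neutrophil list (r = 0.11, and between -0.03 and 0.26 when each lesion was left out). Mki67 itself followed Ptprn (r = 0.97), Pard3 (0.94) and Tcf19 (0.94). The cell cycle list rose with tumour cytokine genes (r = 0.83) and with hypoxia and glycolysis genes (r = 0.76), and without the 3 lesions rich in mt-Rnr2 these were 0.96 and 0.96. These relations were not particular to the 3 lists. In that order, they also had r of 0.68, 0.79 and 0.77 with housekeeping genes and of -0.62, -0.64 and -0.81 with mitochondrial ribosomal RNA. Single cell cycle genes had a median r of 0.21 with one another (0.04 within mice). Mesenchymal transition genes followed fibroblast and matrix genes (r = 0.89, and 0.77 within mice), and Col1a1 followed Col4a1 (r = 0.96).

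**Figure D5:**
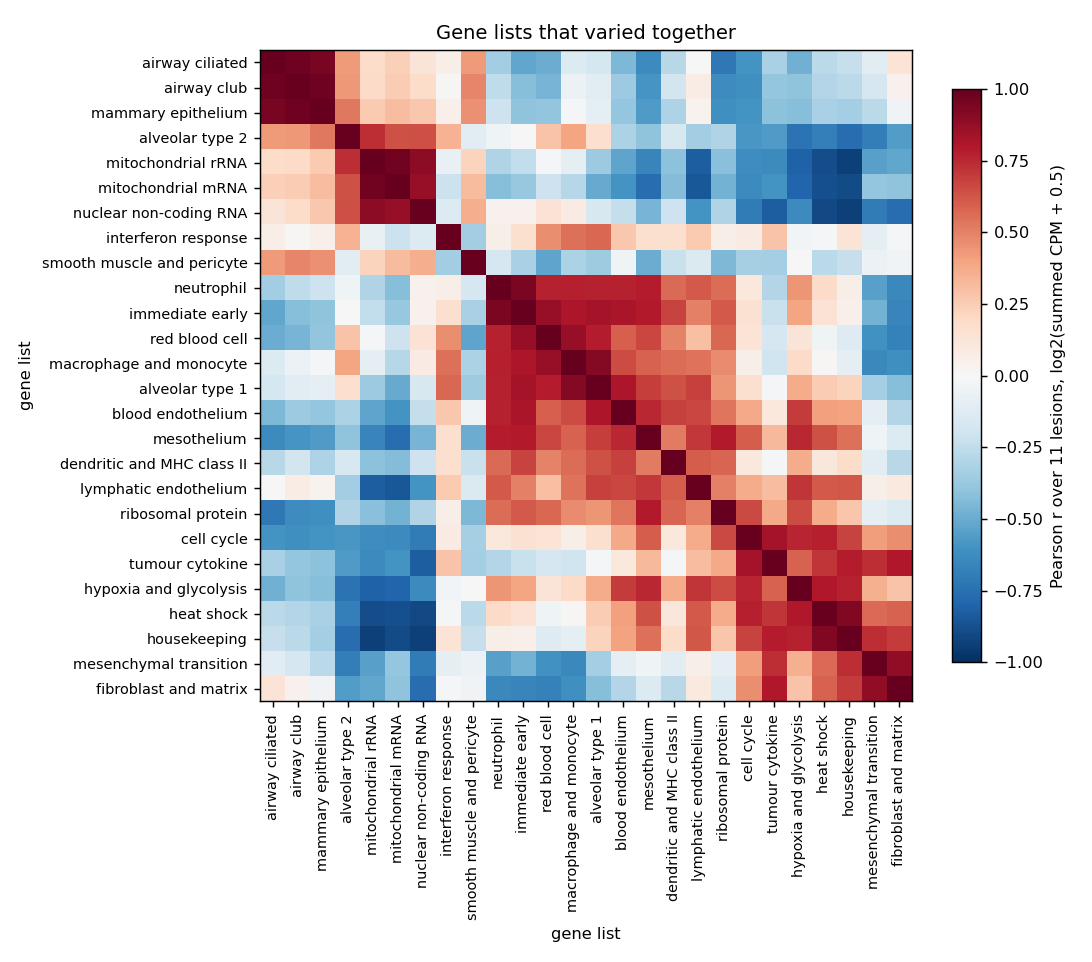
Pearson r over the 11 lesions between the summed levels, as log2(summed CPM + 0.5), of 26 of the 35 gene lists; both axes list the same lists and colour gives r. Airway and mammary epithelium lists form a block, as do neutrophil, red blood cell, macrophage, alveolar type 1 and endothelium lists, and mitochondrial lists oppose the housekeeping list.

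Among the 12 seed genes with a level of at least 10 CPM, mt-Rnr2 had the broadest set of related genes. The level of mt-Rnr2 had r over 0.8 with 339 of the 8023 genes and under -0.8 with 616, against 58 and 13 for Scgb1a1 and 183 and 107 for S100a9. Its nearest genes were mt-Rnr1 (r = 0.98), Kmt2d, a histone methyltransferase (0.98), and mt-Co3 (0.97), and the most opposite were Sulf1 (-0.98), Selenof (-0.97) and Arf1 (-0.97). The summed mitochondrial ribosomal RNA fell as housekeeping genes rose (r = -0.93, and -0.97 within mice). Alveolar type 2 genes rose with it (r = 0.74), but the value was 0.22 without the 3 lesions rich in mt-Rnr2. The part of RNA quality or of the number of captured cells in these relations was not tested.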

How the data were processed

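RNA-seq of 18 lesions was deposited, and the 11 Ctrl lesions were analysed here. The submitters' processing notes name the mm10 build and, as tools, RSEM 1.2.28, DESeq2, STAR and bcl2fastq 2.17. The authors' gene table holds RSEM expected counts for 49585 gene IDs, which were rounded here, and a deposited table of normalized values on a log2 scale was used only for alternatives. GENCODE M21 (GRCm38) gave coordinates, gene types and exon lengths for 49326 IDs. Samples were grouped by treatment label and by the mouse in the title. The animals in the deposited annotation matched the 3 mice of the titles.

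CPM used TMM library sizes, and log2 CPM a prior count of 2. edgeR 4.0.16 in R 4.3.3 (quasi-likelihood, filterByExpr, 14677 genes, no term but mouse) tested mouse, with DESeq2 1.42.0 and limma 3.58.1 as alternatives. The script was tested on simulated data. Lesions of a mouse are not separate animals, so p-values of this test set differences between these mice against the spread among lesions within a mouse. The most alike pair of libraries differed far beyond counting noise (chi-square per degree of freedom of 23.8), so none was merged. Intervals and limits for counts of 0 cover counting error only.

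The lesions and the 35 gene lists were chosen with earlier results of these data known. Genes named are the 12 highest by share and by level per kilobase, the 15 highest and 15 lowest by SD, the 10 highest by median absolute deviation, the 12 smallest p, the 3 most abundant and the most variable member of each list, the 5 nearest genes of each of 13 seed genes (Isg15, a seed below 10 CPM, gave none), and 10 genes fixed by name. Not all of these are printed. Members named only because the test called them, or because they were the most opposite to a seed or had 0 counts, were chosen after their values were seen. Some items are not reported here.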

Additional observations from a re-analysis of the deposited data

Results flagged for a closer look

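Within KO1 and KO2, the mice with more than 3 lesions, the highest or lowest lesion of each of the 35 lists was set against the nearest of the others with Dixon's test, in 70 groups. The test flagged 8 values, and chance flags about 1 in 20 groups.

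In KO1, the mesothelium list stood at 12.95 CPM in KO1-4, with the next lesion at 3.69 CPM, the milk protein list at 6.04 CPM in KO1-2, with the next at 1.65, and the interferon response list at 1212 CPM in KO1-2, with the next at 498. In KO2, the mesothelium list was 251 CPM in KO2-2 (next 127), the B cell list 50.6 CPM in KO2-1 (next 14.97), the adipocyte list 3.83 CPM in KO2-3 (next 1.10) and the mitochondrial mRNA list 6294 CPM in KO2-4 (next 4005). The alveolar type 2 list was the only one flagged as low, at 1226 CPM in KO2-1 with the next lesion at 1784. KO1-2 is among the 3 lesions rich in mt-Rnr2, and the milk protein and adipocyte values rest on few counts.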

How the results depend on the processing

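No paired analysis was possible because a single group was analysed and lesion numbers only name lesions.

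The count of genes that differ between mice (397) was 667 with no filter on low counts, 125 with mt-Rnr2 as a covariate, 2086 by DESeq2's likelihood ratio test, 797 by limma voom with lesion weights and 104 to 2143 with each lesion left out, where a lone lesion of KO3 is assumed to vary like the others. Calls for KO2 minus KO1 (151) were 22 to 240 with each lesion left out and 420 without the 3 lesions rich in mt-Rnr2, an alternative chosen after seeing the data, as were voom, leaving out lesions for r and the mt-Rnr2 covariate for pairs of mice. With that covariate, calls were 28 for KO2 minus KO1, 358 for KO3 minus KO1 and 0 for KO3 minus KO2 (edgeR, the only tool run with it, where 2192 genes had an unadjusted p under 0.05). Calls for KO3 minus KO1 (151) were 6 to 1804, 288 with no filter and 7 without the 3 lesions. Calls for KO3 minus KO2 (106) were 1 to 1892, 168 with DESeq2 size factors, 267 with no filter and 326 without the 3. The cause was not tested.

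The median SD (0.685) was 0.565 from 50 CPM, 0.519 in the deposited normalized table and 0.465 without the 3 lesions. Of the 15 most variable genes, 5 stayed by median absolute deviation; of the 15 least variable, 0 stayed by that measure, 8 to 13 with each lesion left out and 2 without the 3.

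Spans of lists without the 3 lesions were 3.41-fold for alveolar type 2, 3.73 for lymphatic endothelium, 2.08 for fibroblast and matrix, 3.30 for mast cell and basophil, 7.24 for B cell, 5.06 for mitochondrial mRNA, 4.22 for mitochondrial rRNA and 3.60 for nuclear non-coding RNA. With each lesion left out they were 10.6 to 51.6 for B cell, 1.93 to 2.68 for dendritic and MHC class II, 2.08 to 3.15 for fibroblast and matrix and 3.73 to 9.81 for lymphatic endothelium.

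The r of alveolar type 1 and type 2 (0.17) was 0.39 within mice, -0.37 without the 2 farthest lesions, 0.43 without the 3 and -0.13 to 0.37 with each left out. Within mice, neutrophil genes had r of 0.14 with macrophage, 0.45 with red blood cell and 0.74 with immediate early genes. Neutrophil and cell cycle ran from -0.0256 to 0.26, and mitochondrial rRNA with alveolar type 2 was 0.22 without the 3. Another prior count does not apply to summed levels and was not run for r.

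Depth limits genes under about 10 CPM, and 2 lesions of KO3 limit every statement on that mouse.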
